A study of Homo sapiens with 6 samples.

Results

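The genes described here are 8 long noncoding RNAs (lncRNAs) known from cancer, MALAT1, NEAT1, H19, PVT1, CCAT1, UCA1, MEG3 and GAS5, taken by name from a table of 60694 rows. No threshold on their values was used to choose them. Earlier results of these data were known when they and the gene lists were chosen. A row of that name was present for 7 of the 8, and CCAT1 had none. Of the 7, MEG3 was listed at 0 in every library, H19 and UCA1 lay mostly under 1 FPKM, and 4 (MALAT1, NEAT1, PVT1 and GAS5) were expressed enough to be tested. FPKM is the number of sequenced fragments scaled to transcript length and library size, so levels of different genes are compared per length.

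The libraries, paired-end from total RNA, came from SW480 cells, a long-established line of a human colorectal tumour, kept in RPMI1640 with serum. The 3 libraries labelled control carry "lenti" in their sample titles, and the 3 of cells overexpressing HNF4A carry "lenti-HNF4a". HNF4A is a nuclear receptor of liver and gut epithelium that binds DNA as a transcription factor. The labels do not state what the control construct held, the promoter that drives HNF4A, the time since its introduction, whether each population was a clone or a pool, or how the libraries were selected for mRNA. They call the replicates biological but do not say that separate transductions were made, so p-values measure the spread between these cultures. The series title calls HNF4A a target of Wnt/beta-catenin signalling, and the design implies 1 comparison, HNF4A overexpression against control.

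HNF4A was at 6.57 to 8.81 FPKM in the control libraries and at 721 to 1143 FPKM in the overexpression libraries, so every library matched its label. All 7 epithelial markers checked (EPCAM, KRT8, KRT18, KRT19, CDH1, CDX2 and VIL1) were at 10 FPKM or more in all libraries. VIL1 rose from 12.1 ± 2.46 to 32.25 ± 4.36 FPKM (SD, n = 3 per group, limma adjusted p = 0.00182). CDH1 rose from 12.02 ± 0.939 to 17.68 ± 0.554 FPKM (limma adjusted p = 0.00522). EPCAM, KRT8, KRT18, KRT19 and CDX2 had a limma adjusted p of 0.0956 or more. Of 11 markers of fibroblasts, blood cells, endothelium and hepatocytes 9 stayed at or under 0.338 FPKM. The exceptions were COL1A1 and CD68, and CD68, a lysosomal protein of macrophages and many cell lines, went from 0.582 ± 0.196 to 2.74 ± 0.147 FPKM (SD, n = 3 per group, limma adjusted p = 0.0016). The 11 markers summed to 3.06 to 3.81 FPKM in control and 6.56 to 7.002 FPKM in overexpression. Their part in the results below was not tested.

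LncRNAs are transcripts without a long open reading frame that act as RNA or through the act of their transcription. MALAT1 and NEAT1 stay in the nucleus, where MALAT1 collects in nuclear speckles with splicing factors and NEAT1 is the scaffold of paraspeckles. H19 and MEG3 are imprinted genes transcribed from the maternal allele. PVT1 and CCAT1 lie beside MYC in a region often gained in colorectal cancer, UCA1 was first described in bladder cancer, and GAS5 is a host gene whose introns encode small nucleolar RNAs (snoRNAs).

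None of the 4 tested lncRNAs passed the threshold in either direction (limma on log2(FPKM + 1), Benjamini-Hochberg adjusted p under 0.05). Over all 14106 tested genes 676 passed, or 4.79 percent, 480 of them higher (3.4 percent) and 196 lower (1.39 percent). With log2 values centred on the median of each library the split was 412 higher and 267 lower. The 0 of 4 is therefore a count near the background. The groups overlapped for all 4, while they did not overlap for 23.8 percent of all tested genes. In bulk RNA, fewer cells expressing a gene and less RNA per cell cannot be told apart. At an unadjusted p under 0.05 there were 2 of the 4, MALAT1 and NEAT1, against 18.0 percent of all tested genes. In a limma fit without a mean-variance trend 0 of the 4 passed as well. The smallest p that an exact permutation of 3 against 3 libraries can give is 0.1, and the 4 genes gave between 0.2 and 0.9 (two-sided).

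**Figure D1:**
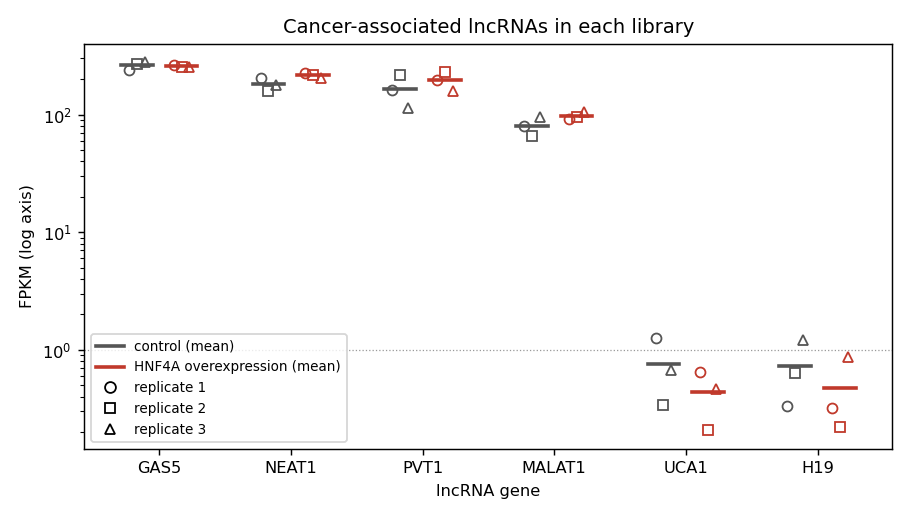
FPKM of the 6 lncRNAs above 0 in each library, on a log axis, with control in grey and HNF4A overexpression in red. Symbols mark the replicates, bars the group means and the dotted line 1 FPKM. GAS5, NEAT1, PVT1 and MALAT1 lie between 65.2 and 278 FPKM, UCA1 and H19 between 0.207 and 1.26 FPKM, and the groups overlap for every gene.

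By level GAS5 stood highest, at a mean of 260.0 FPKM over the 6 libraries, followed by NEAT1 at 198, PVT1 at 180 and MALAT1 at 88.8 FPKM. Among 15408 names of the table that GENCODE 29 annotates as lncRNA these were ranks 12, 16, 17 and 25. Of the 11 names above GAS5, 7 are annotated as antisense to another gene, and strand use in the counting is not given in the sources used here. The name at rank 2 was above 0 only in control replicates 1 and 2, at 597 and 2987 FPKM, so these ranks by mean include such rows. GAS5 exceeded NEAT1 in all 6 libraries without overlap, and PVT1 exceeded MALAT1 likewise. NEAT1 and PVT1 could not be ordered, since their ranges overlapped in both groups. UCA1 and H19, at 0.599 and 0.598 FPKM, overlapped too. Together the members held 0.105 to 0.112 percent of the summed FPKM in control and 0.111 to 0.13 percent in overexpression.

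MALAT1 lies on chromosome 11 from 65497688 to 65506516 (GRCh38, plus strand, GENCODE 29), a gene whose 17 annotated transcripts run from 132 to 8708 bases. It was measured at 79.6, 65.2 and 95.6 FPKM in control and at 92.4, 94.5 and 105 FPKM in overexpression. Control replicate 2 was the lowest and overexpression replicate 3 the highest, and control replicate 3 lay above 2 of the overexpression libraries. The means were 80.1 ± 15.2 and 97.4 ± 7.02 FPKM (SD, n = 3), a log2 change of 0.29 with a standard error of 0.12 and a 95% interval of 0.01 to 0.58 (limma adjusted p = 0.261). The fold interval reached from 1.01 to 1.49. Leaving out 1 library moved the log2 change between 0.16 (without control replicate 2) and 0.43 (without control replicate 3), with 0 of the 6 fits passing. FRMD8, the nearest protein-coding gene before NEAT1 and MALAT1, was at 29.9 ± 2.28 and 26.4 ± 2.11 FPKM (limma adjusted p = 0.293).

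NEAT1, the scaffold RNA of paraspeckles, lies upstream of MALAT1 on the same strand, from 65422774 to 65445540. It stood at 205, 159 and 177 FPKM in the controls, against 225, 215 and 204 FPKM with HNF4A overexpressed. The 2 lowest libraries were controls, and control replicate 1 lay just above overexpression replicate 3. The means were 181 ± 23.3 and 215 ± 10.5 FPKM (SD, n = 3), a log2 change of 0.26 with a standard error of 0.09 and a 95% interval of 0.05 to 0.46 (limma adjusted p = 0.164). Without control replicate 1 the change was 0.35 and passed the threshold (limma adjusted p = 0.0442), while over the 16 alternatives the adjusted p ranged from 0.0442 to 0.396. Its annotated transcripts run from 512 to 22743 bases. The short form and the long form, of which only the long one builds paraspeckles, are not separated by a value per gene. The hairpin MIR612, which lies within NEAT1, was listed at 0 throughout.

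Proteins that work with these nuclear RNAs were looked at as lists. Over all tested genes, 4.79 percent passed and 18.0 percent had an unadjusted p under 0.05 (limma), the background for every list below. No list was tested as a set. Of 18 tested paraspeckle proteins 0 passed in either direction, and 0 had an unadjusted p under 0.05 (limma), with a median log2 change of -0.03 against 0.01 over all tested genes. The 2 most abundant were HNRNPK, an RNA-binding protein needed for paraspeckles, at 438 ± 18.7 and 426 ± 19.2 FPKM, and NONO, a core paraspeckle protein, at 276 ± 5.9 and 261 ± 6.34 FPKM. Of 21 tested nuclear speckle and splicing proteins 0 passed, with a median log2 change of -0.04 and 1 at an unadjusted p under 0.05. The splicing factor genes SRSF3 and SRSF5 were at 210 and 162 FPKM in control and at 208 and 168 FPKM in overexpression. A list drawn up for end processing of MALAT1 and NEAT1 held RNase P subunits, ELAC2, METTL3, METTL14 and METTL16. Whether each of these acts on those ends was not tested. Of its 13 genes 0 passed and 1 had an unadjusted p under 0.05 (limma). ELAC2, which encodes RNase Z, was at 60.5 ± 3.04 and 66.3 ± 4.22 FPKM, and POP7 at 93.8 ± 7.37 and 87.04 ± 3.81 FPKM (limma adjusted p = 0.332 and 0.468).

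GAS5 lies on chromosome 1 from 173863900 to 173868882 on the minus strand, with up to 13 exons in its 29 annotated transcripts. It stood at 238, 270 and 278 FPKM in the controls, against 265, 256 and 254 FPKM with HNF4A overexpressed. All 3 overexpression libraries lay inside the range of the controls. The means were 262 ± 20.8 and 258 ± 6.25 FPKM (SD, n = 3), with a log2 change of -0.02, a standard error of 0.06 and a 95% interval of -0.16 to 0.13 (limma adjusted p = 0.934). The fold interval of 0.896 to 1.09 was the narrowest of the 4 tested members.

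The RefSeq promoter windows of the 2 abundant members that have one are shown because HNF4A is a DNA-binding factor whose motif can be looked for there. Each runs from 250 bases before to 50 bases after an annotated start (GRCh38.p14, GAS5 on the minus and MALAT1 on the plus strand), and the capitals mark the bases from the start onward.
GAS5: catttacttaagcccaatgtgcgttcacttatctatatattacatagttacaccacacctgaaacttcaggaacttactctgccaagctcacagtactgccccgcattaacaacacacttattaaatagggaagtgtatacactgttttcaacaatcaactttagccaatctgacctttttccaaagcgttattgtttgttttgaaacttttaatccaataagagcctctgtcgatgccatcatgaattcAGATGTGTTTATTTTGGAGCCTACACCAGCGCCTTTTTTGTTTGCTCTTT
MALAT1: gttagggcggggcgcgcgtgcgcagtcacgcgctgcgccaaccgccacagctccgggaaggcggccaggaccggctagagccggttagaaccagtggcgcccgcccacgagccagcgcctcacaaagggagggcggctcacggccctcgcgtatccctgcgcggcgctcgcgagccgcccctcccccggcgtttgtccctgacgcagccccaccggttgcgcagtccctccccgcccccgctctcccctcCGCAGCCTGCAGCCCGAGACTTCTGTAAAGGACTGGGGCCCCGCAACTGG
The GAS5 window, chr1:173868996-173869295, holds 37.7 percent G and C, and the MALAT1 window, chr11:65497488-65497787, the upstream one of its pair, 73.7 percent. The GAS5 window belongs to a RefSeq start and lies wholly outside the GENCODE 29 gene, which ends at 173868882. The bases at the GENCODE 29 start of GAS5 were therefore not searched. The letters CAAAGTCCA (an HNF4 motif), CTTTGAT (a TCF/LEF motif) and CACGTG (the E-box bound by MYC) were searched on both strands. None of them was found in the 7 windows of 300 bases that RefSeq gave for GAS5, MALAT1, H19 and MEG3, so no overlap of motifs arose. Over all 35116 windows 0.384, 2.62 and 7.26 percent held them. The absence says only that these letters are not in these windows.

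Of 29 tested snoRNA host genes, the class GAS5 belongs to, 1 rose, 0 fell and 28 did not pass, with a median log2 change of 0.03, and only the 1 that rose had an unadjusted p under 0.05. SNHG8, the host of SNORA24, was at 62.3, 74.5 and 67.3 FPKM in control and at 84.05, 80.6 and 90.9 FPKM in overexpression, so the groups did not overlap. Its log2 change was 0.32 (limma adjusted p = 0.0489), and it passed without control replicate 2 (0.0366) but not without any other library (adjusted p of 0.0789 to 0.13). It also did not pass with a pseudocount of 0.1 or 0.01 (0.0505 and 0.0514), without a variance trend (0.0962) or with no filter on low values (0.184). Of the snoRNAs encoded in the introns of GAS5 2 had a row, SNORD79 and SNORD81, and both were listed at 0 in all libraries. GAS5 transcripts are known to be degraded by nonsense-mediated decay. Of 16 tested factors of that pathway 0 passed and 3 had an unadjusted p under 0.05 (limma), against 18.0 percent of all tested genes. The 2 most abundant, ETF1, a translation release factor, and EIF4A3, a subunit of the exon junction complex, were at 92.7 and 92.7 FPKM in control and at 87.5 and 94.0 FPKM in overexpression. GAS5-AS1, which overlaps GAS5 on the other strand, was at 1.43 ± 0.324 and 1.08 ± 0.477 FPKM (limma adjusted p = 0.568). ZBTB37, a protein-coding gene that also overlaps it on the other strand, was at 1.58 ± 0.157 and 1.25 ± 0.142 FPKM (limma adjusted p = 0.394). SERPINC1, the antithrombin gene, was at 0.251 FPKM or less in all libraries.

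GAS5 RNA can bind the glucocorticoid receptor in place of DNA, and 10 genes of the receptor's list were tested. Of these 1 rose, 2 fell and 7 did not pass, with a median log2 change of -0.11. An unadjusted p under 0.05 (limma) was found for 4 of the 10, against 18.0 percent of all tested genes. Over all tested genes 3.4 percent were higher and 1.39 percent lower, and whether the list differs from this was not tested. MT2A, a metallothionein, fell from 1196 ± 53.9 to 830 ± 7.61 FPKM (limma adjusted p = 0.00142), and it is 1 of a family of near-identical genes. ERRFI1, an inhibitor of EGF receptors, fell from 13.5 ± 1.79 to 9.38 ± 0.641 FPKM, and SGK1, a kinase, rose from 0.935 ± 0.347 to 2.41 ± 0.539 FPKM (both limma adjusted p = 0.0361). MT2A passed in all 6 fits that left out 1 library and, as the only 1 of the 12 genes called on the gene lists, with no filter on low values (0.0246). ERRFI1 passed only without control replicate 1 (the other 5 fits gave 0.062 to 0.116) and SGK1 only without overexpression replicate 2 (the other 5 gave 0.0634 to 0.113).

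**Figure D2:**
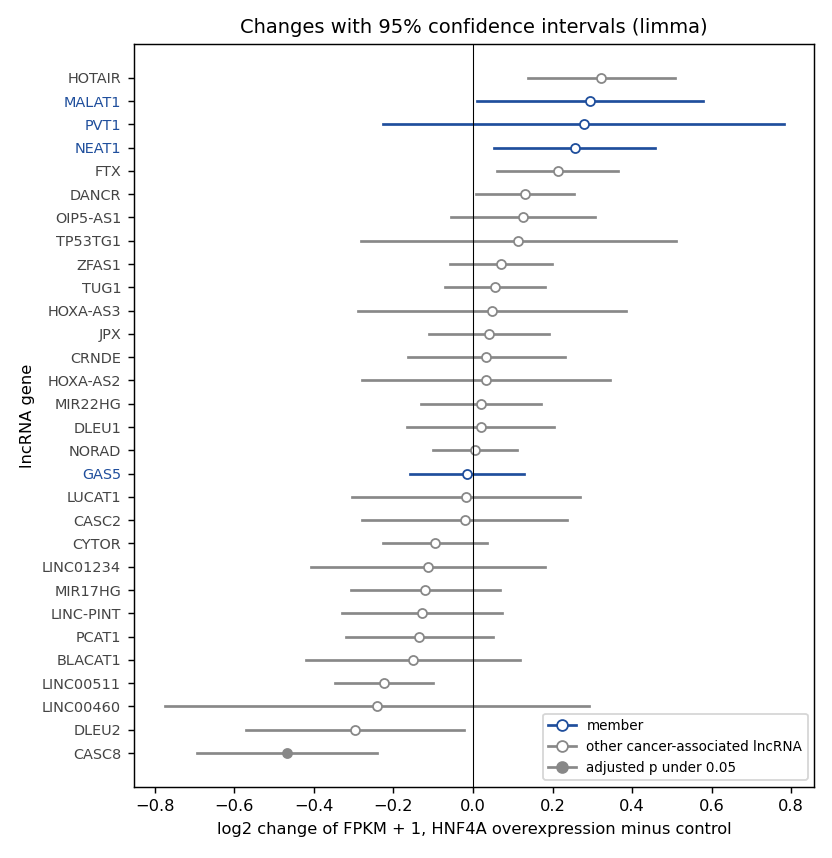
Log2 change of FPKM + 1, HNF4A overexpression minus control, with 95% limma intervals, for the 4 tested members (blue) and 26 other tested cancer-associated lncRNAs (grey), where a filled point marks an adjusted p under 0.05. The 4 members have open points between -0.02 and 0.29, the interval of PVT1 is the widest of the 4, and CASC8 at -0.47 has the only filled point.

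PVT1 lies on chromosome 8 from 127794533 to 128101253 on the plus strand, 53099 bases past MYC. It spans 306721 bases, while its 25 annotated transcripts are 113 to 1699 bases long. It was measured at 162, 216 and 114 FPKM in control and at 196, 232 and 157 FPKM in overexpression. Replicate 2 was the highest and replicate 3 the lowest in both groups, and the groups overlapped. The means were 164 ± 51.0 and 195 ± 37.3 FPKM (SD, n = 3), a log2 change of 0.28 with a standard error of 0.22 and a 95% interval of -0.22 to 0.78 (limma adjusted p = 0.584). The fold interval of this fit was 0.856 to 1.72. The log2 change was 0.04 without control replicate 3 and 0.50 without control replicate 2, with 0 of the 6 fits passing. The hairpins MIR1204, MIR1205, MIR1206 and MIR1207 inside PVT1 were listed at 0, and TMEM75, on its other strand, was at 0.577 ± 0.218 and 0.607 ± 0.13 FPKM.

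PVT1 varied more between libraries of a group than nearly all genes of its level. The highest control held 1.89 times the FPKM of the lowest, and the highest overexpression library 1.47 times. Its within-group SD of log2(FPKM + 1) was 0.38, and of 1682 other tested genes at a mean of 50 to 500 FPKM 7 had a larger one, the median being 0.07. MALAT1 had a within-group SD of 0.21, with 49 of these genes above it, NEAT1 0.14 with 133 above it, and GAS5 0.09 with 576 above it. This is a description of 6 libraries, in which the value per gene also depends on the transcript lengths assumed.

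**Figure D3:**
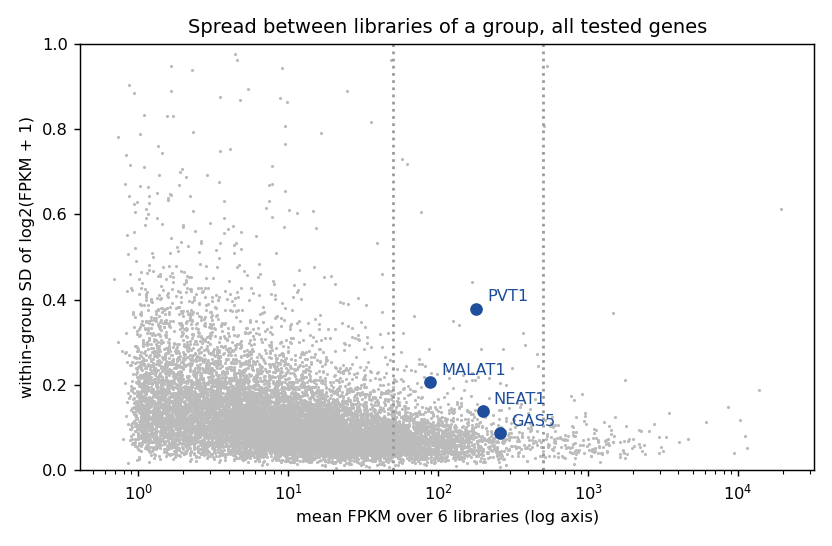
Within-group SD of log2(FPKM + 1) against mean FPKM (log axis) for the 14106 tested genes (grey) and the 4 tested members (blue), with 40 genes beyond the top of the axis. Dotted lines mark 50 and 500 FPKM, between which PVT1 at 0.38 lies near the upper edge of the genes and GAS5 at 0.09 within their bulk.

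The members did not share 1 pattern over the libraries. After subtracting each gene's mean over the 6 libraries, MALAT1 and NEAT1 were the closest pair of members, with a root-mean-square distance of 0.18 on the log2 scale. MALAT1 and PVT1 were the farthest apart, at 0.47. In control replicate 2 MALAT1 and NEAT1 stood 0.42 and 0.3 below their means while PVT1 stood 0.3 above its own. Among 12665 other tested genes with a symbol, the closest to MALAT1 were PLEKHG4, RAB26 and SRP14-AS1, at distances of 0.05 to 0.07. Closest to NEAT1 were OSBP2, HLA-DQB1 and PNPLA7, each at 0.05, and closest to GAS5 NOMO1, CHD1 and GPD2, each at 0.02, of which NOMO1 has near-identical copies. PVT1 had no gene as close, the nearest being SLC7A5P1 at 0.12 and DBP and OSGIN1 at 0.16. The distance is not scaled to a gene's own spread, which was largest in PVT1, so it cannot be compared between members. The genes named are the closest of 12665 over only 6 libraries, and whether they share a pattern beyond these was not tested.

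**Figure D4:**
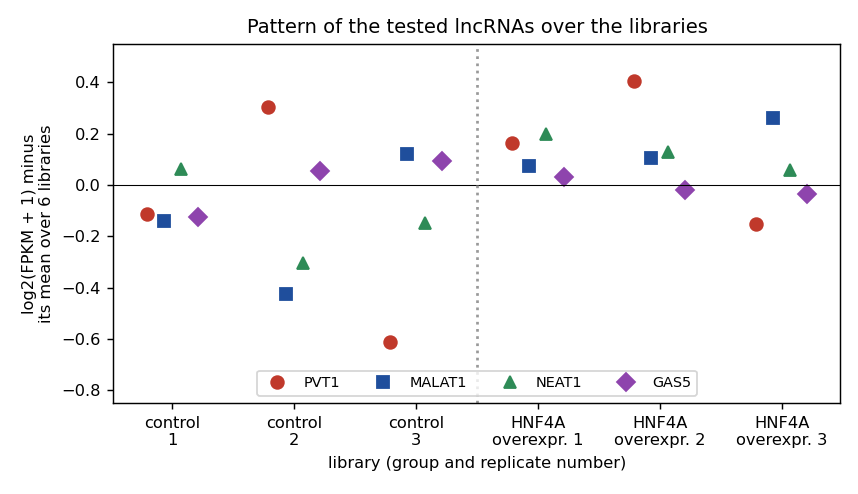
Log2(FPKM + 1) of the 4 tested lncRNAs minus each gene's own mean, in the 3 control libraries (left of the dotted line) and the 3 HNF4A overexpression libraries (right). PVT1 is highest in replicate 2 and lowest in replicate 3 of both groups, MALAT1 and NEAT1 are lowest in control replicate 2, and GAS5 is farthest from its mean, at -0.12, in control replicate 1.

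CCAT1 lies on chromosome 8 from 127207382 to 127219268 in RefSeq (GRCh38.p14). GENCODE 29 has no gene of that name, and its gene CASC19, from 127072694 to 127227541 on the minus strand, covers the interval. CASC19 was listed at 0.0927, 0.0643 and 0.0576 FPKM in control and at 0.376, 0.286 and 0.42 FPKM in overexpression. The groups did not overlap, with means of 0.0716 ± 0.0186 and 0.361 ± 0.0683 FPKM (SD, n = 3, exact two-sided permutation p = 0.1, the smallest possible). It lay under 1 FPKM in every library and was not tested; with no filter on low values its limma adjusted p was 0.048 among 32006 genes. Whether fragments of CCAT1 were counted in this row was not tested, and no value is given for CCAT1.

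Around PVT1 and CCAT1, 4 of 12 genes at 8q24 on the list with a row were tested. None of the 4 rose, 1 fell and 3 missed the threshold, with a median log2 change of -0.18. An unadjusted p under 0.05 (limma) was found for 2 of the 4, against 18.0 percent of all tested genes. CASC8, an lncRNA between CCAT1 and MYC, fell from 4.22, 4.22 and 3.53 FPKM in control to 2.75, 2.36 and 2.69 FPKM in overexpression. Its log2 change was -0.47 (limma adjusted p = 0.0361), and it passed without control replicate 3 (0.0497) but not without any other library (0.0754 to 0.119). It overlaps PCAT1, POU5F1B and CCAT2 on the other strand, and CCAT2 was listed at 0 throughout. MYC, the transcription factor oncogene, was at 75.3 ± 2.83 and 72.8 ± 1.2 FPKM, a log2 change of -0.05 with a 95% interval of -0.15 to 0.06 (limma adjusted p = 0.685). Of 19 tested MYC target genes 1 rose, 0 fell and 18 did not pass, with a median log2 change of -0.05. The 1 that rose was CCND2, the cyclin D2 gene, from 0.878 ± 0.203 to 1.99 ± 0.237 FPKM (limma adjusted p = 0.0205). It passed without control replicate 3 (0.0276), and leaving out any other library gave 0.0543 to 0.0694.

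H19 lies on chromosome 11 from 1995176 to 2001470 on the minus strand. It was listed at 0.334, 0.641 and 1.2 FPKM in control and at 0.318, 0.221 and 0.873 FPKM in overexpression. Replicate 3 was the highest in both groups and the groups overlapped. The means were 0.726 ± 0.441 and 0.471 ± 0.352 FPKM (SD, n = 3), a difference of -0.23 on the log2(FPKM + 1) scale (exact two-sided permutation p = 0.5). Only 1 library reached 1 FPKM, so H19 was under the filter, and a fit with no filter gave a limma adjusted p of 0.753. The difference was -0.03 without control replicate 3 and -0.41 without overexpression replicate 3.

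H19 is also the precursor of miR-675, and its 2 mature forms are shown (RefSeq, GRCh38.p14) because the hairpin has a row of its own, MIR675, which was listed at 0 in all libraries. Libraries of long RNA do not measure mature miRNAs. The 5p form lies at chr11:1996800-1996822 and the 3p form at chr11:1996768-1996787, both on the minus strand. The capitals mark the seeds, bases 2 to 8, which differ.
hsa-miR-675-5p: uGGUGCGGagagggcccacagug
hsa-miR-675-3p: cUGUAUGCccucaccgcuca

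On one side of H19 the nearest protein-coding gene is MRPL23, a mitochondrial ribosomal protein gene, at 42.9 ± 3.87 and 39.5 ± 3.03 FPKM (limma adjusted p = 0.526). On the other it is IGF2, 127642 bases away, the imprinted growth factor gene of the paternal allele. It fell from 2.83, 2.34 and 3.84 FPKM in control to 0.704, 1.36 and 1.58 FPKM in overexpression. The groups did not overlap, and the log2 change was -0.86 with a 95% interval of -1.29 to -0.42 (limma adjusted p = 0.0425). It passed without overexpression replicate 3 (0.0493) but not without any other library (0.0561 to 0.121), and it shares its locus with the readthrough gene INS-IGF2. IGF2 also did not pass with a pseudocount of 0.1 or 0.01 (limma adjusted p = 0.0537 and 0.0569). The same held without a variance trend (0.0567) and with no filter on low values (0.197). On the list of 24 imprinted genes 8 could be tested: 2 rose, 1 fell and 5 missed the threshold, with a median log2 change of 0.10. An unadjusted p under 0.05 (limma) was found for 4 of the 8, against 18.0 percent of all tested genes. The shares over all tested genes were 3.4 percent higher and 1.39 percent lower, and a difference of the list from them was not tested. SLC22A18, a transporter gene on the same chromosome arm, rose from 8.52 ± 1.51 to 16.1 ± 2.1 FPKM (limma adjusted p = 0.0101), and GRB10, an adaptor that dampens insulin and IGF signals, from 6.1 ± 0.732 to 10.1 ± 0.871 FPKM (limma adjusted p = 0.00955). Both passed in all 6 fits that left out 1 library but not with no filter on low values, where the adjusted p was 0.0964 for SLC22A18 and 0.0736 for GRB10. SLC22A18 overlaps SLC22A18AS on the other strand. Among 8 tested genes linked to H19 and let-7 miRNAs the median log2 change was -0.09, and 2 had an unadjusted p under 0.05 (limma). At the adjusted threshold 0 rose and 1 fell. It was IGF2BP2, a binding protein of IGF2 mRNA, from 42.3 ± 0.804 to 35.01 ± 2.61 FPKM (limma adjusted p = 0.0494), which passed in 0 of the 6 fits that left out 1 library (0.0502 to 0.142).

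**Figure D5:**
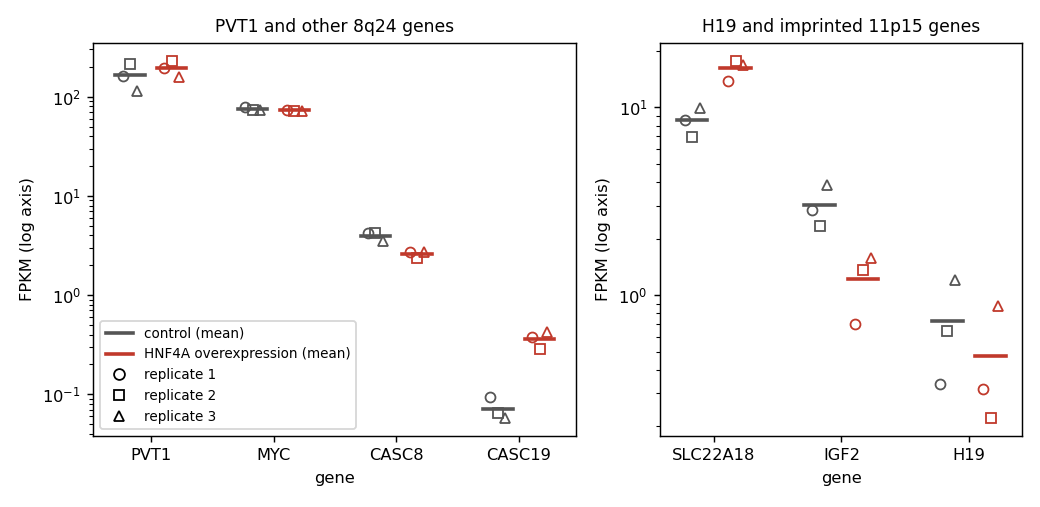
FPKM in each library (log axes) of PVT1 with 3 other genes of its region (left) and of H19 with 2 imprinted genes of chromosome 11 (right), with symbols for replicates and bars for group means. CASC8 and IGF2 are lower and SLC22A18 and CASC19 higher in all 3 overexpression libraries than in any control, while PVT1, MYC and H19 overlap between the groups.

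MEG3, the maternally expressed gene on chromosome 14 from 100779410 to 100861031, was listed at 0 in all 6 libraries. Its neighbours DLK1 and RTL1, the paternally expressed genes of the same domain, were listed at 0 as well, as were the hairpins MIR770 and MIR2392 inside it and MIR493 after it. With 0 in both groups no fold can be given.

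UCA1 lies on chromosome 19 from 15828206 to 15836326 on the plus strand. It was listed at 1.26, 0.341 and 0.679 FPKM in control and at 0.643, 0.207 and 0.468 FPKM in overexpression. Replicate 1 was the highest and replicate 2 the lowest in both groups, and the groups overlapped. The means were 0.759 ± 0.463 and 0.439 ± 0.22 FPKM (SD, n = 3), a difference of -0.27 on the log2(FPKM + 1) scale (exact two-sided permutation p = 0.4). With 1 library at 1 FPKM or more UCA1 was under the filter, and a fit with no filter gave a limma adjusted p of 0.724. The difference was -0.07 without control replicate 1 and -0.45 without control replicate 2. The protein-coding genes on either side, OR10H1 and CYP4F2, were at 0.0169 FPKM or less on average in both groups, and LINC01764, on its other strand, was listed at 0. Among 15 tested genes reported as partners or targets of UCA1 the median log2 change was -0.03. In 5 of them the unadjusted p was under 0.05 (limma), against 18.0 percent of all tested genes. At the adjusted threshold 1 rose, 0 fell and 14 did not pass. It was IDH1, the cytosolic isocitrate dehydrogenase gene, from 22.3 ± 4.1 to 37.6 ± 1.99 FPKM (limma adjusted p = 0.0122), which overlaps IDH1-AS1 on the other strand. IDH1 passed in all 6 fits that left out 1 library, at 0.04999 without overexpression replicate 2, and did not pass with no filter on low values (0.105). In the fit without control replicate 3, 1 gene of this list fell. Among 20 p53 target genes, a list that holds NEAT1, the median log2 change was 0.03, and 6 had an unadjusted p under 0.05 (limma). At the adjusted threshold 1 rose, 0 fell and 19 did not pass. It was TP53I3, a p53-induced oxidoreductase gene, from 9.05 ± 0.491 to 11.8 ± 0.778 FPKM (limma adjusted p = 0.0347), which passed in 0 of those 6 fits (0.0581 to 0.111).

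Beyond the members, 26 of 47 other cancer-associated lncRNAs with a row were tested. Of these 0 rose, 1 (CASC8) fell and 25 did not pass, with a median log2 change of 0.01. An unadjusted p under 0.05 (limma) was seen in 6, against 18.0 percent of all tested genes. In 5 of the 47, among them the antisense gene of the HNF4A locus, HNF4A-AS1, all libraries were at 0. Of 1643 tested genes that GENCODE 29 annotates as lncRNA, 31 were higher (1.89 percent) and 9 lower (0.548 percent), so that 2.43 percent passed. The median log2 change of these lncRNAs was 0.05 and their median standard error 0.12, against 0.01 and 0.09 over all tested genes. Whether the share of lncRNAs called differs from that of other genes was not tested.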

How the data were processed

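The authors deposited 1 table of FPKM per gene symbol and library, with their group means, a ratio and a p-value per row that were not used here. Per the submitters' processing notes, the tools included Cufflinks, TopHat, TopHat2, Bowtie and Bowtie2, along with FastQC, and the build was hg38; versions and roles are not stated. For the annotation and strand setting, the sources used here give nothing. FPKM holds no read counts, so the depth is unknown and no counting interval was computed. The sums of FPKM were 615594 to 652879 per library.

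Columns were matched to samples by name, and groups were taken from the labelled genotype. Differences in log2(FPKM + 1) were tested by limma 3.58.1 under R 4.3.3, with a mean-variance trend and no term besides group, over names with at least 1 FPKM in at least 3 of the 6 libraries. P-values were Benjamini-Hochberg adjusted over these 14106 names. A change on this scale understates that of genes near 1 FPKM. A repeated symbol was taken at its highest row. The fit was run before use on data simulated with independent normal noise at the variances of the fit itself. That run cannot show how the fit does where libraries share deviations. Coordinates come from GENCODE 29 (GRCh38), which holds 55766 of the 59332 names. Promoter and miRNA sequences are RefSeq's.

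The members and gene lists were chosen with earlier results of these data known. The rule for named genes took all members, HNF4A, MYC, up to 4 called genes of a list or its 2 most abundant, the neighbours, and the 3 genes nearest to a tested member in pattern. COL1A1, CD68, CASC19 and HNF4A-AS1 were named after their values were seen. Some neighbouring genes that the rule names are not reported here. Alternatives covered the pseudocount, the filter, 3 scalings, the trend, repeated symbols, a replicate block and leaving out each library.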

Additional observations from a re-analysis of the deposited data

How the results depend on the processing

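None of the 4 tested lncRNAs passed under any of the 16 alternatives, except NEAT1 without control replicate 1 (log2 change 0.35, limma adjusted p = 0.0442), where the count of members called higher was 1, so that it ranged from 0 to 1 over the fits leaving out 1 library. Over these fits the log2 change ranged from 0.17 to 0.35 for NEAT1, 0.16 to 0.43 for MALAT1, 0.04 to 0.50 for PVT1 and -0.082 to 0.028 for GAS5. The sign of GAS5 turned without control replicate 2 (0.0067) and without control replicate 3 (0.028); the cause was not tested. Over the same fits the tested genes called numbered 274 to 313 higher and 87 to 161 lower, and the annotated lncRNAs 14 to 21 higher and 3 to 9 lower, with fewer libraries in each fit. With no filter on low values 201 genes were higher and 49 lower, and 16 lncRNAs higher, with more genes tested. With a filter of 5 FPKM 10 lncRNAs were higher. With median centring 17 lncRNAs were lower.

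The labels number the replicates 1 to 3 in both groups without saying what a number shares. Deviations from the group means correlated over genes at 0.14, 0.09 and 0.15 for same-numbered libraries and at -0.12 to -0.01 for the others. Every library thus correlated best with its own number, a hint from the data only. The 3 deviations of a group sum to 0, so positive values for same numbers force the others negative on balance. The negative values are therefore no separate evidence. With the replicate block 638 genes were higher and 399 lower, 47 lncRNAs higher and 26 lower, and the adjusted p was 0.0858 for MALAT1, 0.0664 for NEAT1, 0.0699 for PVT1 and 0.905 for GAS5, still 0 of 4 passing. The standard error of PVT1 was 0.07 with the block and 0.22 without it, and all 3 same-numbered differences of PVT1 were positive. SNHG8 lost its call under the block (0.0531).

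Of the 12 genes called on the gene lists, all 12 kept their direction wherever they had a value, and 1 (MT2A) kept its call with no filter, where the other 11 had an adjusted p of 0.0736 to 0.197, 8 without a variance trend and 4 to 6 when 1 library was left out. Calls were also gained, and the counts that follow are all calls of a list in that setting. With median centring 2 other cancer lncRNAs, CASC8 among them, and 1 gene of the MALAT1 and NEAT1 end-processing list fell. So did 3 glucocorticoid receptor targets, MT2A and ERRFI1 among them. With the block 2 other cancer lncRNAs, again with CASC8, and 2 genes of the UCA1 list fell. Without control replicate 3 1 gene of the UCA1 list fell, and with no filter CASC19 rose. The differences of UCA1 and H19, both under the filter, were -0.73 and -0.67 with a pseudocount of 0.01, and ranged over the fits leaving out 1 library from -0.45 to -0.07 and from -0.41 to -0.03. For genes listed near 0 the unknown depth limits what can be said, and MEG3 at 0 may not have been detectable.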
